A study of Arabidopsis thaliana with 4 samples.

Results

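Serrate-1 (se-1) embryos of Arabidopsis thaliana were compared with wild type for 4 genes of one regulatory circuit: MIR159a (AT1G73687) and MIR159b (AT1G18075), which encode the primary transcripts of microRNA159 (miR159), and MYB33 (AT5G06100) and MYB65 (AT3G11440), which encode GAMYB-like transcription factors. They were chosen by gene identifier and are 4 of the 27880 rows of each count table. RNA was sequenced from embryos at the globular stage, of 32 to 64 cells, in 2 libraries of se-1 and 2 of wild type, all in the Col ecotype. The sample titles word the stage as early globular for se-1 and as 32 to 64 cells for wild type. The design describes 2 biological replicates per condition. The mutant allele reduces, without abolishing, the function of SERRATE (SE). All plants spent at least 4 days in the cold, at 4 °C in darkness, before growth at 22 °C in days of 16 h light and 8 h dark. The labels name no transgene and no treatment that differs between the genotypes.

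MicroRNAs are cut out of hairpins in longer primary transcripts by the nuclease DCL1, which works with the double-stranded RNA-binding protein HYL1 and the zinc-finger protein SE. Mature miR159 pairs with the mRNAs of GAMYB-like factors and directs their cleavage, which keeps MYB33 and MYB65 activity low in vegetative tissue. GAMYB-like factors act downstream of the hormone gibberellin, and in seeds and anthers they promote the death of nurse tissues, the aleurone and the tapetum. Mature microRNAs were not measured in these libraries, which were made from amplified mRNA, so the values below are those of the primary transcripts and of the mRNAs.

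The mature sequences come first because a single base sets the products of the precursor genes apart. They are given 5′ to 3′ from the RefSeq annotation of TAIR10.1, with the seed, bases 2 to 8, in capitals.
miR159a: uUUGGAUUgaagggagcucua
miR159b-3p: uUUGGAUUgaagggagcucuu
miR159c: uUUGGAUUgaagggagcuccu
miR319a: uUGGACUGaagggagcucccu
Counted from the 5′ end, miR159b-3p differs from miR159a by A21U, and miR159c by U20C and A21U. The 3 miR159 sequences share the seed UUGGAUU. miR319a, of the related miR319 family that acts on TCP transcription factors, has the seed UGGACUG. MIR159a lies on the minus strand at chr1:27713233-27713416 in TAIR10.1, where the annotated hairpin of 184 nt holds the mature strand at bases 163 to 183. MIR159b lies on the plus strand at chr1:6220646-6220841, where the annotated 196 nt hold it at bases 168 to 188. Neither overlaps another annotated gene. The counts come with gene identifiers only, so the span over which reads were counted for these genes is not known. The annotated hairpins are shown with the mature miR159 in capitals.
MIR159a: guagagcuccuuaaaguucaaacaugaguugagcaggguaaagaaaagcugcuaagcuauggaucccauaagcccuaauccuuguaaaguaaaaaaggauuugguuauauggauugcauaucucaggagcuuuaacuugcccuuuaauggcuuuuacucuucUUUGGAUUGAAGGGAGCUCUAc
MIR159b: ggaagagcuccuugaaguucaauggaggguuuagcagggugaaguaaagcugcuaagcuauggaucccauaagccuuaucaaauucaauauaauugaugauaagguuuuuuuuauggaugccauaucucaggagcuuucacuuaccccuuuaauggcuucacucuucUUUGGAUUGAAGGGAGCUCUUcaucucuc
Aligned over 181 positions, the hairpins were 84.0% identical, and their longest identical run was 30 nt. How reads that match more than 1 place were counted is not given in the sources used here, so the division of reads between MIR159a and MIR159b is uncertain in such stretches.

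MYB33 and MYB65 carry the same 21 bases opposite miR159, and the sites are shown with those of other GAMYB-like genes and of DUO1. Capitals mark bases that pair with miR159a, G:U pairs included.
MYB33: UGGAGCUCCCUUCAuUCCAAu
MYB65: UGGAGCUCCCUUCAuUCCAAu
MYB101: UAGAGCUUCCUUCAAaCCAAA
MYB104: UGGAGCUCCCUUCAuUCCAAG
DUO1: UGGAGCUCCaUUCGAUCCAAA
The MYB33 site is at chr5:1839579-1839599 on the plus strand of TAIR10.1, in the coding part of exon 4 of 5. The MYB65 site is at chr3:3604151-3604171 on the plus strand, in the coding part of exon 3 of 3. In both genes the bases facing miR159a positions 1 and 7 were unpaired and position 20 made a G:U pair. With an unpaired base scored 1 and a G:U pair 0.5, both sites scored 2.5 against miR159a and, with position 21 also unpaired, 3.5 against miR159b-3p. MYB101 had the lowest score against miR159a, 1.5.

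Between 18580516 and 20882004 reads were counted per library. Genes were tested in 1 fit over the whole table (edgeR quasi-likelihood test, Benjamini-Hochberg adjusted, threshold 0.05), and levels are CPM, that is counts relative to the TMM-adjusted total of a library. In that fit 72.3% of the 18714 genes tested passed, 36.2% higher and 36.0% lower in se-1, and the median log2 fold change over all genes was 0.00. Of the 4 genes, 3 passed, a share near the 72.3% of all genes that passed in either direction and so no result about these genes in itself. All 3 were higher in se-1, beside 36.2% of all genes, and MIR159a entered the test only through se-1. Nothing in the labels says whether the replicates came from separate plants, so p-values measure the spread between these libraries. SE mRNA itself, the gene named by the genotype, was at 69.4 and 71.1 CPM in se-1 and at 96.7 and 98.6 CPM in wild type, 1.39-fold lower (adjusted p = 2.9e-05, edgeR, and 0.242 in the fit that corrects for transcript length). Markers of the embryo were detected for 8 of 8 genes, with a summed level of 1302 to 1370 CPM in se-1 and 1776 to 1883 CPM in wild type. Of them 3 were higher (WOX2, DRN and PIN7) and 4 lower (WOX8, ATML1, PDF2 and MP). With the length trend removed 3 were higher and 2 lower. The abundant ATML1, PDF2 and MP lost their calls, WOX8 stayed lower (log2 fold change -1.89) and LEC1 became lower (-0.42). Endosperm markers (7 genes, none at 0 throughout) summed to 79.8 to 80.6 CPM in se-1 and 96.6 to 104 CPM in wild type, and seed coat markers (7 genes, none at 0 throughout) to 197 to 200 CPM in se-1 and 131 to 144 CPM in wild type. Of the endosperm markers 6 were tested, 2 higher (PHE1 and AGL62) and 3 lower (FIS2, FWA and ZOU). AGL62 entered the test only through se-1. The endosperm sum hides large opposite differences, since PHE1 was 7.45-fold higher in se-1 and FIS2 5.93-fold lower. These endosperm calls were the same with the length trend removed. Of the seed coat markers 7 were tested, 3 higher and 2 lower. Both kinds of tissue surround the embryo in the seed. Their part in the results below was not tested, and in such samples fewer cells of a type and less RNA per cell cannot be told apart.

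The primary transcripts of miR159 were far higher in se-1 embryos than in wild type. MIR159b was the more abundant of the pair in every library, and MIR159a had the larger fold change. MIR159a had 66 and 94 counts in the se-1 libraries and 7 and 8 in the wild-type libraries. These are 3.53 and 4.50 CPM in se-1 and 0.369 and 0.418 CPM in wild type, or means of 4.02 ± 0.687 and 0.394 ± 0.0351 CPM (SD, n = 2). Every se-1 library stood several times above both wild-type libraries. MIR159a was 10.1-fold higher in se-1 (log2 fold change 3.34, SE 0.30, adjusted p = 1.36e-08, edgeR), and the ratio of its summed counts, scaled to library size, was 10.3 with an exact 95% interval of 6.05 to 18.8. That interval covers counting error only. In wild type MIR159a was below the 10 counts, or 0.523 CPM, that the filter on low counts asks for, so it entered the test only through its level in se-1. With no filter, where 26.3% of genes were called higher, its adjusted p was 0.000171.

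MIR159b had 459 and 499 counts in se-1 and 76 and 82 in wild type. The levels were 24.6 and 23.9 CPM in se-1 and 4.00 and 4.29 CPM in wild type, or means of 24.2 ± 0.466 and 4.15 ± 0.202 CPM (SD, n = 2). The replicates of each genotype lay close together and the genotypes did not overlap. MIR159b was 5.84-fold higher in se-1 (log2 fold change 2.55, SE 0.12, adjusted p = 2.14e-12, edgeR), with a count ratio of 5.84 (exact 95% interval 4.93 to 6.96). Ranked by log2 fold change, MIR159a stood above 98.9% of all tested genes and MIR159b above 97.6%. They took middle places among the 33 tested MIR genes, of which 12 had a larger log2 fold change than MIR159a and 16 a larger one than MIR159b. Genes that entered the test only through se-1, MIR159a among them, are high in that genotype by selection, so these ranks are a description.

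**Figure D1:**
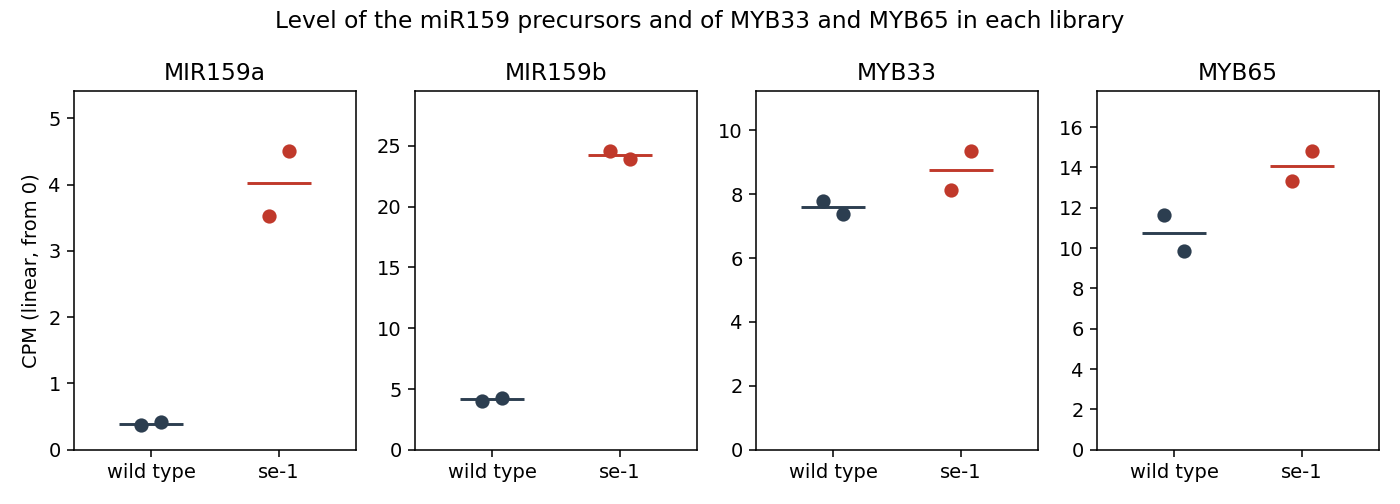
Level of MIR159a, MIR159b, MYB33 and MYB65 in CPM (linear axes from 0, a separate scale for each gene) in the 2 wild-type and 2 se-1 libraries; points are libraries and lines are means. The precursors stand 10.1-fold and 5.84-fold apart between genotypes, and MYB33 and MYB65 1.16-fold and 1.31-fold.

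MIR159a made up a somewhat larger part of the summed precursor counts in se-1 than in wild type. MIR159a made up 12.6% (Clopper-Pearson 95% interval 9.86 to 15.7) and 15.9% (13.0 to 19.0) of their summed counts in the se-1 libraries. In the wild-type libraries it made up 8.43% (3.46 to 16.6) and 8.89% (3.92 to 16.8). The point values of the genotypes did not overlap, while the intervals did. The log2 ratio of MIR159a to MIR159b was 0.80 higher in se-1 (exact permutation test over libraries, two-sided p = 0.333, the smallest that 2 against 2 libraries allow).

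The mRNAs that miR159 pairs with differed far less between the genotypes than the precursors did. MYB65 mRNA rose 1.31-fold in se-1, and MYB33 mRNA, 1.16-fold above wild type, did not pass the test. MYB65 had 249 and 309 counts in se-1 and 221 and 188 in wild type. Its level was 13.3 and 14.8 CPM in se-1 and 11.6 and 9.83 CPM in wild type, or means of 14.1 ± 1.04 and 10.7 ± 1.28 CPM (SD, n = 2). The genotypes did not overlap, but the gap between the nearest libraries was about as wide as the spread within a genotype. The log2 fold change was 0.39 (SE 0.12, adjusted p = 0.0064, edgeR), and the count ratio was 1.31 (exact 95% interval 1.15 to 1.5). The call depended on single libraries and on the tool: the adjusted p was 0.0744 without se-1 replicate 2, 0.0903 without wild-type replicate 2 and 0.0528 with DESeq2. Of all genes tested, 32.4%, 32.7% and 30.3% were called higher in these fits. MYB65 lies on the plus strand at chr3:3602036-3605172 (TAIR10.1), and its 3′ end overlaps 47 nt of AT3G11450 on the other strand. AT3G11450 itself was at 52.1 and 53.0 CPM in se-1 and at 57.8 and 53.7 CPM in wild type (adjusted p = 0.374, edgeR).

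MYB33, on the plus strand at chr5:1837835-1840727 (TAIR10.1), had 152 and 195 counts in se-1 and 148 and 141 in wild type. Its level was 8.14 and 9.34 CPM in se-1 and 7.80 and 7.37 CPM in wild type, or means of 8.74 ± 0.854 and 7.59 ± 0.298 CPM (SD, n = 2). The lower se-1 library lay just above the higher wild-type library. The log2 fold change was 0.21 (SE 0.13, adjusted p = 0.162, edgeR), and the count ratio was 1.16 with an exact 95% interval of 0.987 to 1.36. All 4 genes were thus higher in each se-1 library than in either wild-type library, as were 42.7% of tested genes.

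MYB33 and MYB65 kept a similar proportion to each other in all 4 libraries. MYB33 made up 37.9% (Clopper-Pearson 95% interval 33.1 to 42.9) and 38.7% (34.4 to 43.1) of their summed counts in se-1. In wild type it made up 40.1% (35.1 to 45.3) and 42.9% (37.4 to 48.4). The log2 ratio of MYB33 to MYB65 was 0.19 smaller in se-1, a difference of -0.19 (exact permutation p = 0.333, the smallest possible here). Their coding sequences, of 1563 and 1662 nt, were 77.1% identical over 1530 aligned positions, with a longest identical run of 45 nt, so reads within such runs may not be assignable to either gene.

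Within a library, counts of the target mRNAs exceeded those of the precursors in wild type and fell short of them in se-1. There were 0.764 and 0.850 MYB33 and MYB65 counts per MIR159a and MIR159b count in the se-1 libraries. In the wild-type libraries there were 4.45 and 3.66. The log2 ratio differed by -2.32, with no overlap between the genotypes (exact permutation p = 0.333, the smallest possible here). A ratio inside a library does not depend on how libraries are scaled to each other. The length trend described below does not cancel in it, since the mRNAs are far longer than the annotated hairpins. That trend was -0.31 at MYB33, -0.15 at MYB65, 0.21 at MIR159a and 0.28 at MIR159b. Held below 300 nt, it was 0.69 at both precursors. How much of the difference in the ratio follows length was not tested. Per kilobase of annotated transcript, MIR159b had the highest level of the 4 genes in either genotype, at 124 ± 2.38 CPM per kilobase in se-1 and 21.2 ± 1.03 in wild type (SD, n = 2). MIR159a was at 21.8 ± 3.73 and 2.14 ± 0.191 CPM per kilobase, MYB65 at 6.30 ± 0.468 and 4.81 ± 0.573, and MYB33 at 3.45 ± 0.337 and 2.99 ± 0.118, se-1 first. MIR159a thus stood above both mRNAs in se-1 and below both in wild type on this scale. The wild-type value of MIR159a rests on 7 and 8 counts, so its place below MYB33 is uncertain. The lengths used, 184 and 196 nt, are those of the annotated hairpins and not of whole primary transcripts, so levels per kilobase of the precursors are relative to the hairpin.

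Transcript length bore on MYB33 and MYB65 because long transcripts were lower in se-1 across the table. The longest annotated transcript has 2537 nt for MYB33 and 2233 nt for MYB65. Coding genes of 2501 to 3000 nt, the class of MYB33, had a median log2 fold change of -0.33 over 1675 genes, and 16.9% of them were called higher. Those of 2001 to 2500 nt, the class of MYB65, had a median of -0.14 over 3059 genes, and 25.4% were called higher. MYB33 and MYB65, at 0.21 and 0.39, thus stood above the median of transcripts of their own length. The fitted length trend was -0.31 at MYB33 and -0.15 at MYB65. With that trend removed, the log2 fold change of MYB33 was 0.52 (SE 0.13, adjusted p = 0.00181) and that of MYB65 0.54 (SE 0.12, adjusted p = 5.53e-04, both edgeR), where 66.5% of 18529 genes passed, 36.2% higher and 30.3% lower. Removing a trend of length and GC content gave 0.58 for MYB33 (adjusted p = 6.70e-04) and 0.53 for MYB65 (adjusted p = 6.89e-04), with 36.1% of genes called higher. MYB33 therefore passed the test only in the fits that correct for length. What set the trend was not tested, and genotype and sample set cannot be told apart here.

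**Figure D2:**
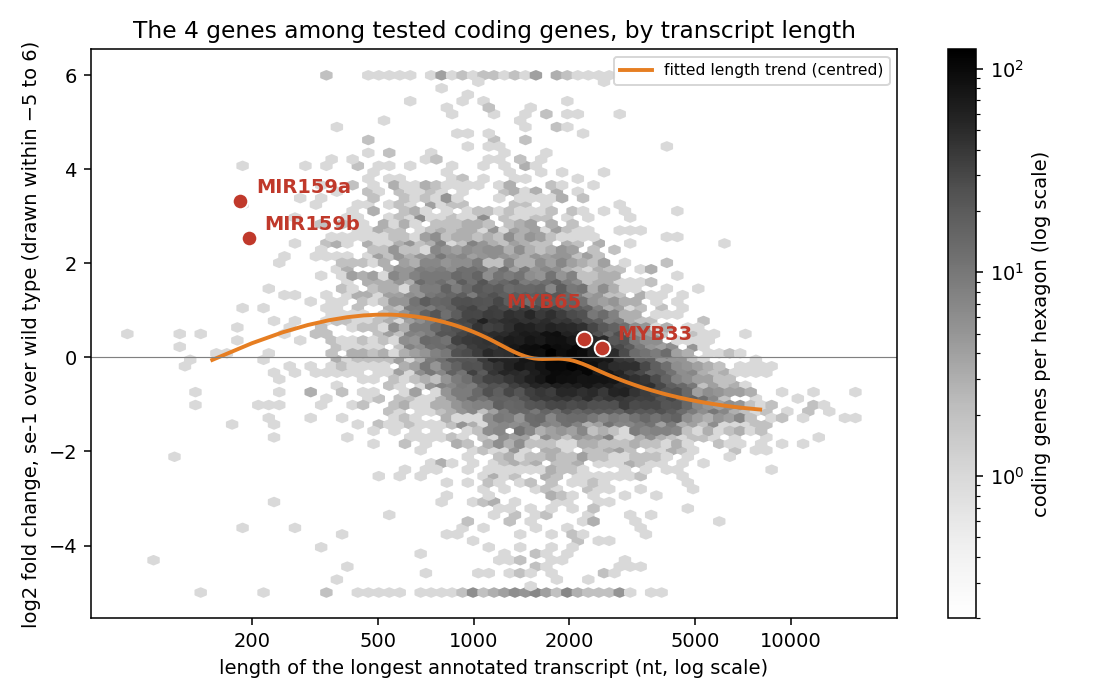
Log2 fold change (se-1 over wild type) against the length of the longest annotated transcript (nt, log scale) for tested coding genes, in grey by number per hexagon, with the fitted length trend in orange and the 4 genes in red. MYB33 and MYB65 lie above the trend for their length, and MIR159a and MIR159b lie far above it at lengths where few coding genes were tested.

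The precursors stayed far above wild type in the same fits. The log2 fold change with the length trend removed was 3.13 for MIR159a and 2.26 for MIR159b. Only 52 coding genes of at most 300 nt were tested, and their median of 0.06 departs from the 1.26 of the 218 genes of 301 to 500 nt, so the trend is poorly known at the length of a hairpin. When the trend below 300 nt was held at its value at 300 nt, a setting chosen after seeing the data, the log2 fold change was 2.65 for MIR159a (adjusted p = 5.70e-07) and 1.85 for MIR159b (adjusted p = 2.21e-10).

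**Figure D3:**
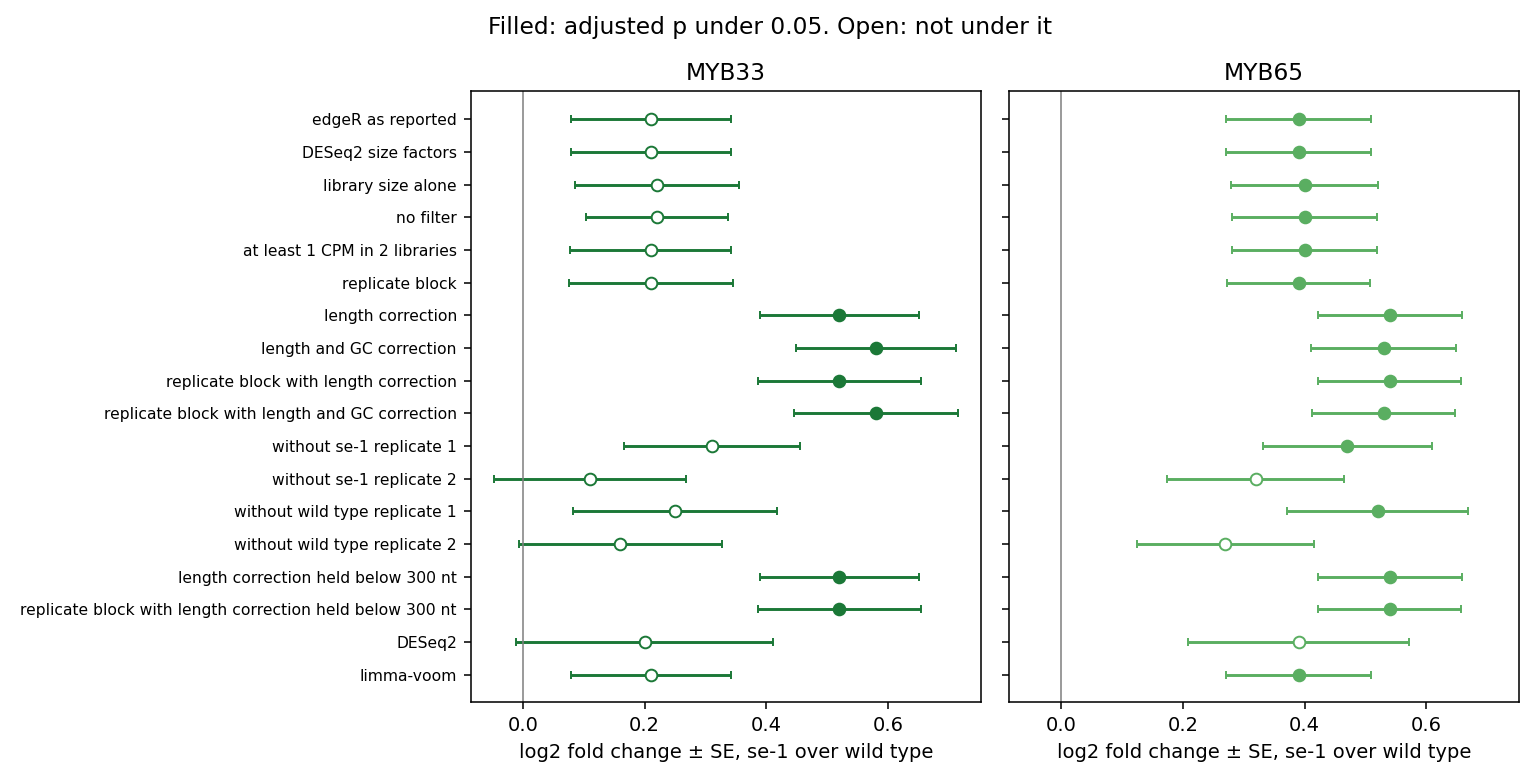
Log2 fold change (se-1 over wild type) with its SE for MYB33 (left) and MYB65 (right) under each setting; filled points have an adjusted p under 0.05. MYB33 runs from 0.11 to 0.58 and is filled in 6 of 17 alternatives, those with a length correction; MYB65 runs from 0.27 to 0.54 and is filled in 14 of 17.

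Of the other GAMYB-like genes, MYB101 alone had enough counts to be tested. MYB101, which in pollen tubes acts with MYB97 and MYB120 in differentiation and reception, had 65 and 74 counts in se-1 and 84 and 83 in wild type. Its level was 3.48 and 3.55 CPM in se-1 and 4.42 and 4.34 CPM in wild type. It thus lay lower in se-1, on the other side of wild type from MYB33 and MYB65, without passing the test (log2 fold change -0.32, SE 0.17, adjusted p = 0.108, edgeR, and -0.29 with the length trend removed). MYB104 had 3 and 6 counts in se-1 and 1 in each wild-type library. MYB81 and MYB97 had no counts in se-1, and 3 and 2 for MYB81 and 1 and 1 for MYB97 in wild type. MYB120 and DUO1, a regulator of sperm cells, had 0 counts in all 4 libraries, where 3 counts correspond to 0.144 to 0.161 CPM. MYB33 and MYB65 were therefore the most abundant in counts of the 8 genes of the GAMYB-like list, in which DUO1 was included. Of the 3 tested 1 was called higher and none lower, beside 36.2% and 36.0% of all genes.

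The precursor genes of the related miR319 family had few counts in wild type and more in se-1. MIR319b had 59 and 65 counts in se-1 and 4 and 2 in wild type, a count ratio of 19.9 (exact 95% interval 8.89 to 55.3, adjusted p = 9.26e-09, edgeR). MIR319a had 12 and 15 counts against 1 and 0, a ratio of 26.0 (4.29 to 1065, adjusted p = 4.70e-05), and MIR319c 13 and 19 against 2 and 2, a ratio of 7.71 (2.73 to 30.0, adjusted p = 1.16e-04). All 3 entered the test only through their level in se-1, so a higher call was the only one open to them and their calls are a description. MIR159c, from which the third miR159 sequence comes, had 0 counts in all libraries. MIR159b therefore held most of the counts of the miR159 family in every library. Against miR319a the sites of MYB33 and MYB65 scored 3.0, close to their score of 2.5 against miR159a.

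Genes reported to be acted on by GAMYB-like factors were 7, of which 5 were tested. In se-1 3 were higher and none lower, where 36.2% of all tested genes were higher and 36.0% lower. The median log2 fold change of 1.56, beside 0.00 for all genes, is the value of CP1. The count changed with the setting. With no filter SPL9 and LFY also entered, so all 7 were tested, and 4 were higher and 1 lower (26.3% and 27.2% of all genes). The number higher also rose when se-1 replicate 2 was left out. CP1, a cysteine protease whose transcript is reported to rise when MYB33 and MYB65 escape miR159, had 263 counts in each se-1 library and 90 and 82 in wild type. That is 14.1 and 12.6 CPM against 4.74 and 4.29 CPM. CP1 rose 2.95-fold (log2 fold change 1.56, SE 0.13, adjusted p = 7.02e-09, edgeR), and at 1468 nt its value with the length trend removed was 1.54. The other 2 that rose are themselves precursor genes, of miR156, which represses SPL factors of the juvenile-to-adult transition. MIR156a was at 160 and 187 CPM in se-1 and 56.2 and 52.9 CPM in wild type, 3.18-fold higher, and MIR156c at 260 and 298 CPM against 25.6 and 20.6 CPM, 12.1-fold higher. With the length correction held below 300 nt their log2 fold changes went from 1.67 to 0.98 and from 3.59 to 2.90, still past the threshold, and the median of the list was then 0.98.

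The other 4 reported genes were not called in the edgeR fit. AMY1, an alpha-amylase that breaks down starch, had 66 and 46 counts in se-1 and 43 and 36 in wild type (adjusted p = 0.11, edgeR), and it overlaps ATGP4, which was 2.59-fold lower in se-1. ABI5, a bZIP factor of abscisic acid signalling, had an adjusted p of 0.819. SPL9, which overlaps another annotated gene, and the floral regulator LFY had too few counts to be tested. Their summed counts differed by more than counting error, which does not cover the spread between replicates. SPL9 had 11 and 10 counts in se-1 and 4 and 3 in wild type, a ratio of 2.89 (exact 95% interval 1.18 to 8.05). LFY had 2 and 3 counts in se-1 and 9 and 8 in wild type, a ratio of 0.283 (0.0817 to 0.800).

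**Figure D4:**
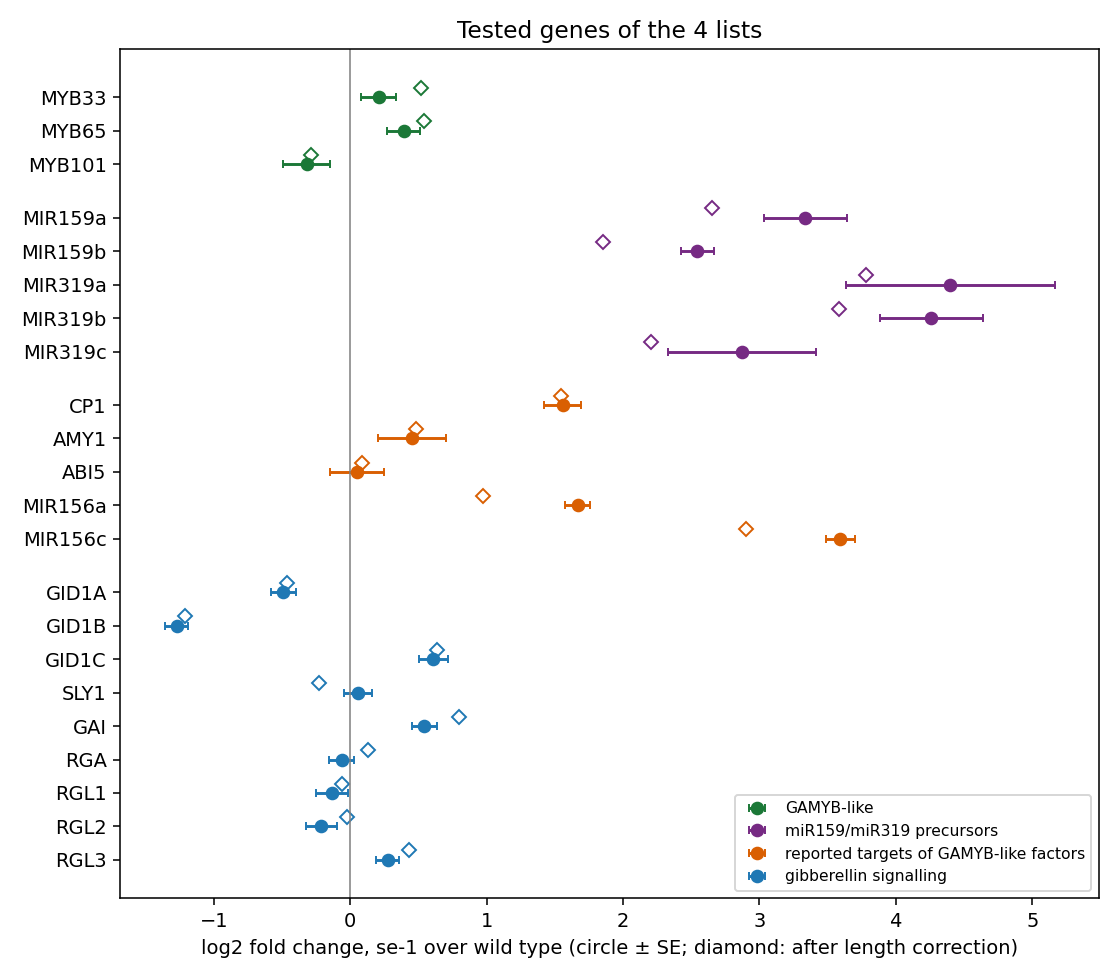
Log2 fold change (se-1 over wild type) of the tested genes of 4 lists: GAMYB-like factors, miR159 and miR319 precursors, genes reported to be acted on by GAMYB-like factors, and gibberellin signalling. Circles with bars are values ± SE, and open diamonds are values after the length correction held below 300 nt; MYB33 and MYB65 lie at 0.21 and 0.39 while all 5 precursors lie at 2.55 or above before correction.

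Gibberellin signalling genes act upstream of GAMYB-like factors. All 9 were tested, of which 3 were higher and 2 lower in se-1 and 4 did not pass, with a median log2 fold change of -0.06. Of all tested genes 36.2% were higher and 36.0% lower, so the number higher is near that background. Of the GID1 receptors, GID1B was at 37.1 and 37.0 CPM in se-1 and at 93.9 and 85.4 CPM in wild type, 2.42-fold lower (adjusted p = 2.27e-10, edgeR). GID1A was 1.41-fold lower (adjusted p = 8.56e-05) and GID1C 1.53-fold higher (adjusted p = 4.97e-05). Among the DELLA repressors, whose loss on gibberellin binding releases GAMYB-like activity, GAI was 1.46-fold higher (adjusted p = 4.31e-05) and RGL3 1.21-fold higher (adjusted p = 0.00764). RGA, RGL1, RGL2 and the F-box protein gene SLY1, which marks DELLA proteins for breakdown, did not pass. The counts of 3 higher and 2 lower were the same with the length trend removed.

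Sites as close to miR159a as those of MYB33 and MYB65 were rare. Among the annotated transcripts of 38074 genes, 9 genes (0.0236%) had an ungapped window of 21 nt that scored 2.5 or less, 8 of them within coding sequence and the other, in SDG14, across its edge. They were MYB101, MYB104, DUO1, MYB33 and MYB65, and, outside the GAMYB-like list, AT2G34010, AT1G29010, SDG14 and ACS8. A score of this kind describes letters, not a working site. The genes of this group outside that list had the following levels. SDG14, a SET-domain gene, was at 72.7 and 81.3 CPM in se-1 and 58.4 and 62.8 CPM in wild type, higher by 0.35 on the log2 scale (adjusted p = 0.00143, edgeR) and by 1.08 with the length trend removed. AT2G34010 had 16 and 11 counts in se-1 and 7 and 6 in wild type (log2 fold change 0.99, adjusted p = 0.0551). ACS8, an enzyme of ethylene synthesis, had 1 and 0 counts in se-1 and 13 and 17 in wild type, a ratio of wild type over se-1 of 31.1 (exact 95% interval 5.18 to 1270). ACS8 entered the test only through wild type, so its call is a description. AT1G29010 had 3 and 12 counts in se-1 and 6 and 3 in wild type and was not tested. Next, at a score of 3.0, were 4 genes, of which AT2G27590 was lower in se-1 (log2 fold change -0.63) and OPT1, an oligopeptide transporter gene, higher (0.54). AT1G08197, also at 3.0, was not analysed here.

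Genes with looser pairing to miR159a were found on both sides of wild type. Of 99 genes that scored 4 or less, 68 were coding genes with a row in the tables, and 47 were tested. Of these 12 were higher in se-1, 21 lower and 14 did not pass, with a median log2 fold change of -0.21 beside 0.00 for all genes tested, of which 36.2% were higher and 36.0% lower. Some of the lower genes, ACS8 among them, entered the test only through wild type, so lower was the only call open to them. AT2G34010 entered only through se-1 and was not called. The counts are therefore a description. With the length trend removed the counts were 14 higher, 12 lower and 21 not passing, with a median of -0.01 beside 0.06 for all genes, of which 36.2% were higher and 30.3% lower. MYB33 and MYB65 stood above this median in either fit.

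**Figure D5:**
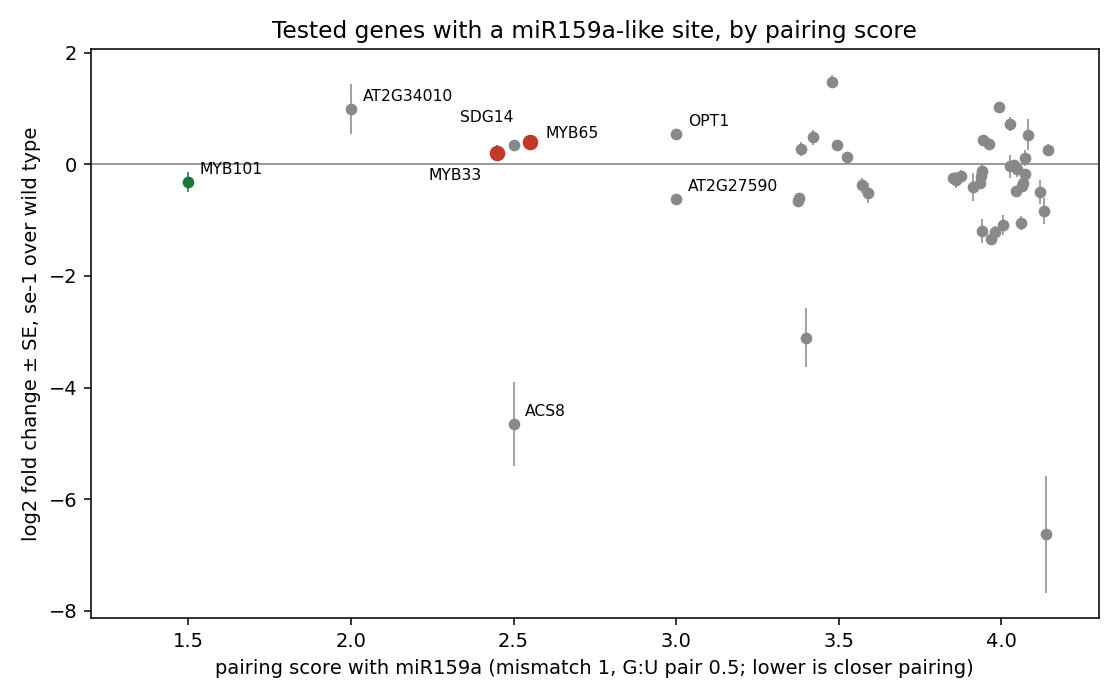
Log2 fold change (se-1 over wild type, with SE) of tested coding genes against the score of their best pairing with miR159a, where lower scores are closer pairing; points at 3.5 and 4.0 are spread sideways and MYB33 and MYB65 are set slightly apart at 2.5. MYB33 and MYB65 (red) lie at 0.21 and 0.39, MYB101 (green) at -0.32, and genes with scores of 3.5 and 4.0 lie on both sides of 0.

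Genes whose levels over the 4 libraries were most like those of each of the 4 genes were found by Euclidean distance of log2 CPM to 18713 other tested genes. For MYB33 they were AT5G36160 (distance 0.0491) and AT4G28690 (0.101), and for MYB65 AT1G64850 (0.0748) and AT1G16650 (0.0818). For MIR159b they were AT5G44060 (0.184) and TRX-M4 (0.229), which encodes a chloroplast thioredoxin. MIR159a had no neighbour as near, with AT4G28170 at 0.520 and AT2G25650 at 0.574.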

How the data were processed

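Gene-level RNA-seq was analysed for 2 se-1 and 2 wild-type libraries. The authors deposited raw counts per gene for each library, whole numbers with no normalization. The tools HISAT2 2.0.5, FastQC 0.11.5, featureCounts and Cufflinks 2.2.1, and TAIR10 as the build, are listed in the submitters' processing notes. The sources used here give neither the strand setting nor the treatment of multiply mapping reads. Per the labels' protocols, RNAqueous-Micro served for RNA isolation, MessageAmp aRNA for amplification and TruSeq RNA for the libraries. Amplification of this kind starts at the poly(A) tail, so the copies can favour short transcripts.

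Of 27880 identifiers, 27576 matched the RefSeq annotation of TAIR10.1, which gave symbols, lengths, coordinates and sequences. The 94 rows that join several loci name none of the listed genes. Tests used edgeR 4.0.16 in R 4.3.3 (filterByExpr, TMM, two-sided quasi-likelihood F-test between the genotypes, no covariate), which left 18714 genes. The SE of a log2 fold change is its absolute value over the square root of F. The procedure was tested on simulated data. Chi-square per degree of freedom between replicates was 5.87 in se-1 and 4.10 in wild type, above sampling noise. Each library was treated as a replicate, as the design describes. Such values cannot tell biological from technical replicates. The common biological coefficient of variation was 0.0579. The exact intervals cover counting error only and treat each read as independent. Reads carry no molecular identifiers, so copies made in amplification were not removed and the intervals may be too narrow.

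The length correction is an offset from a natural spline of 5 degrees of freedom fitted to coding genes. The other alternatives were DESeq2 1.42.0, its size factors, library size alone, limma-voom (limma 3.58.1), a replicate block, each library left out, no filter and a filter of 1 CPM in 2 libraries. Python 3.11.15 with scipy 1.17.1 was used for intervals, exact permutation tests and the site search. The members and gene lists were chosen with earlier results of these data known. Genes named are the 4 members, the genes of the lists, those with the 10 lowest pairing scores and the 2 nearest in level to each member. SE, ATGP4 and AT3G11450 were named outside this rule, as the mutated gene and overlapping neighbours.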

Additional observations from a re-analysis of the deposited data

How the results depend on the processing

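MIR159a and MIR159b were higher in se-1 and past the threshold in all 17 alternatives, with log2 fold changes of 2.65 to 3.5 and 1.85 to 2.59. No result reversed. MYB33, at 0.21 and not past the threshold, passed it with the length correction (0.52), the length and GC correction (0.58), each of these with the replicate block (0.52 and 0.58) and with the correction held below 300 nt without and with the block (0.52 and 0.52); by construction these fits remove a trend of -0.31 (length) or -0.38 (length and GC) at MYB33. MYB65, at 0.39, no longer passed with DESeq2 (0.39, adjusted p = 0.0528), and the cause was not tested. Leaving out each library in turn gave 0.11 to 0.31 for MYB33 (adjusted p 0.0907 to 0.575) and 0.27 to 0.52 for MYB65 (adjusted p 0.0012 to 0.0903), MYB65 losing the call without se-1 replicate 2 (0.32) and without wild-type replicate 2 (0.27), where fewer samples remain and the lone library is assumed to vary like the other genotype. Over the alternatives 11443 to 13683 genes changed, beside 13523. Of 136 recomputed list counts 124 stayed within 1.5 times and 12 moved further. The GAMYB-like genes called higher were 2 with each length correction and 0 with DESeq2. The precursor genes called higher were 3 in place of 5 with the 1 CPM filter. MIR319a and MIR319c, below 1 CPM in every library, were not tested there. Of the genes acted on by GAMYB-like factors 1 was lower in place of 0 with no filter, where SPL9 and LFY also entered the test. The remaining counts that moved did so with a library left out. The genotypes share replicate numbers, and no pairing is stated. Over the tested genes, the difference between replicates 1 and 2 in se-1 correlated at 0.0263 with that in wild type. No shared deviation was thus seen, which does not settle whether same-numbered libraries were paired. With the replicate numbers as a block 13683 genes changed. The log2 fold changes were then 0.21 (MYB33), 0.39 (MYB65), 3.33 (MIR159a) and 2.55 (MIR159b), with no change of call. Depth limits the precursors in wild type, where MIR159a had 7 and 8 counts, and the GAMYB-like genes with counts near 0.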
